A study of Mus musculus with 24 samples.

Results

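The Fc gamma receptor genes of the mouse were described here as 5 genes, Fcgr1, Fcgr3, Fcgr4, Fcgr2b and Fcer1g, chosen by their symbols from the 56691 genes of each deposited table. All 5 had counts in both tables and entered each test. Fc gamma receptors bind the constant part of IgG and let macrophages take up particles and immune complexes that carry antibody. FcγRI (Fcgr1), FcγRIII (Fcgr3) and FcγRIV (Fcgr4) are activating and depend on the common gamma chain (Fcer1g), whose ITAM motif is phosphorylated by Src family kinases and recruits Syk. FcγRIIB (Fcgr2b) is inhibitory, and its ITIM motif recruits the phosphatase SHIP1.

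The RNA came from the mouse macrophage line RAW264.7 and from bone marrow-derived macrophages (BMDMs), in 8 groups of 3 libraries. In each cell type wild-type and Olfml3 knockout cells were given PBS or 100 ng/mL lipopolysaccharide (LPS) for 4 h. The knockout RAW264.7 cells were made with a lentiviral CRISPR guide and isolated as single-cell clones. Differences by genotype and differences between clones cannot be told apart in this line. BMDMs were grown in L929 supernatant from the marrow of male C57BL/6 mice, and their knockout came from a line that lacks the gene in all tissues. The study calls the 3 libraries of a group biological replicates. Whether they were separate cultures, and how many mice stood behind a BMDM library, is not stated, so p-values measure only the spread between these libraries. The study measured uptake of IgG-coated beads, and the question here was whether the RNA of the receptors for IgG differed by genotype, without and with LPS.

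Between 11638273 and 16478616 reads were counted per RAW264.7 library and between 17121240 and 22873094 per BMDM library. The genotype tag contradicts the title in 12 of 24 libraries, and titles were used. Olfml3 RNA was near 0 in knockout BMDMs (6 counts with PBS and 1 with LPS over 3 libraries, against 243 and 102 in wild type) but higher in the RAW264.7 libraries labelled knockout (271 and 4264 counts) than in wild type (43 and 48), so RAW264.7 groups are named as labelled. Among RAW264.7 libraries, replicate 1 of those labelled knockout with PBS correlated more with wild-type PBS libraries (0.973) than with its own group (0.964). Values without it are given beside the tests that rest on it. Leaving it out moved the share of all genes called between RAW264.7 genotypes with PBS from 8.55% to 20.6%. The summed FPKM of 8 macrophage markers, among them Lyz2, Cd68 and Csf1r, was 3326 to 3990 in wild-type RAW264.7 and 1123 to 1394 in the libraries labelled knockout, whose ranges did not overlap with either treatment. In BMDMs it was 12170 to 17880. Lyz2 alone had 9890 to 15320 FPKM in BMDMs, so the sum mainly follows this gene there, here and below. In RAW264.7 Lyz2 ran from 259 to 2264 FPKM, Cd14 from 90.4 to 1152 and Cd68 from 323 to 585. How each single marker differed by genotype was not read. Mertk had no count in any RAW264.7 library and Mrc1 reached 0.25 FPKM at most there, while both were expressed in all BMDM libraries. Marker lists of B cells, T and NK cells, neutrophils, dendritic cells, mast cells and fibroblasts summed to at most 1.08 FPKM in any library, with Cd3e, Ly6g and Mcpt8 at 0 counts throughout.

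Fcgr2b, Fcgr4, Fcgr3 and Fcer1g lie in that order within 275.7 kb of chromosome 1, and Fcgr1 lies on chromosome 3. By the GENCODE M21 annotation of GRCm38, Fcgr2b covers chr1:170958617-170976547 on the minus strand, Fcgr4 chr1:171018920-171029761 on the plus strand, Fcgr3 chr1:171051174-171064935 on the minus strand and Fcer1g chr1:171229572-171234365 on the minus strand. Fcgr1 covers chr3:96282909-96293969 on the minus strand, 7.43 Mb from Olfml3 on the same chromosome. The deposited tables list the same genes at the same lengths with starts lower by 172431 bases on chromosome 1 and by 92684 on chromosome 3, so their coordinates are not those of this build.

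Fcgr2b and Fcgr3 are the closest pair in sequence. Their longest coding sequences shared 86.7% of aligned bases, against 64.0% to 68.6% for the other pairs of receptors. The longest stretch that both coding sequences share without a difference is shown because a fragment that lies wholly inside it matches both genes. It spans bases 278 to 406 of the Fcgr2b coding sequence and bases 263 to 391 of that of Fcgr3.
shared Fcgr2b and Fcgr3 coding sequence: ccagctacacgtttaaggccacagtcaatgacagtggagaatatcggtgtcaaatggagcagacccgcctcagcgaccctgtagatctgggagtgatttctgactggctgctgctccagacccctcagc
Of windows of 50 bases along the Fcgr3 transcript, 12.8% were found in an Fcgr2b transcript, and of windows of 150 bases, the length of 1 read, none was. Levels of Fcgr2b and Fcgr3 were therefore read one by one, and how the counting split reads from the shared stretch was not tested.

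The stretches before the starts of Fcgr1 and Fcgr4 are shown because these members were called between genotypes in both cell types under LPS. Fcgr3 and Fcgr2b also differed there, but in BMDMs by less than 1.5-fold, and were not called in them. Both come from RefSeq on GRCm38.p6, which gave a promoter for all 5 genes (6 starts), and hold the 250 bases before the start. Searched on both strands of the full 300 bases (250 before and 50 after the start), and in capitals where found, were the gamma interferon-activated site TTCNNNGAA, an interferon response element-like word made of GAAA, any 2 bases and GAAA, and GAGGAA, the core bound by PU.1. No match overlapped another.
Fcgr1, chr3:96293970-96294219, minus strand: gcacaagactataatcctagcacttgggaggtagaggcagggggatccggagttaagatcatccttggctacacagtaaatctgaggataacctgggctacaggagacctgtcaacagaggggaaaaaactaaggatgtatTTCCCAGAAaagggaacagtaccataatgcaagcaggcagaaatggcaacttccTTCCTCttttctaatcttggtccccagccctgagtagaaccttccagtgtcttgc
Fcgr4, chr1:171018676-171018925, plus strand: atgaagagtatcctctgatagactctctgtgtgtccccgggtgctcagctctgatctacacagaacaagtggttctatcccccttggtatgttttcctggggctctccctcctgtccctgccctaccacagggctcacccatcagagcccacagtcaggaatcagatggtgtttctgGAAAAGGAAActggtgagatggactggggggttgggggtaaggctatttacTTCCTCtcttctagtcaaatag
Fcgr1 held TTCCCAGAA from base -109 and TTCCTC, the reverse complement of the PU.1 word, from base -55. Fcgr4 held GAAAAGGAAA from base -73 and TTCCTC from base -22. Both Fcgr3 starts had TTCCTC close before them, from base -6 and from base -15, and neither Fcgr2b nor Fcer1g had any of the words. Of 32851 promoters of the same length, 8.3% hold the first word, 3.44% the second and 28.3% the third. A match in letters is a description and not a site.

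**Figure D1:**
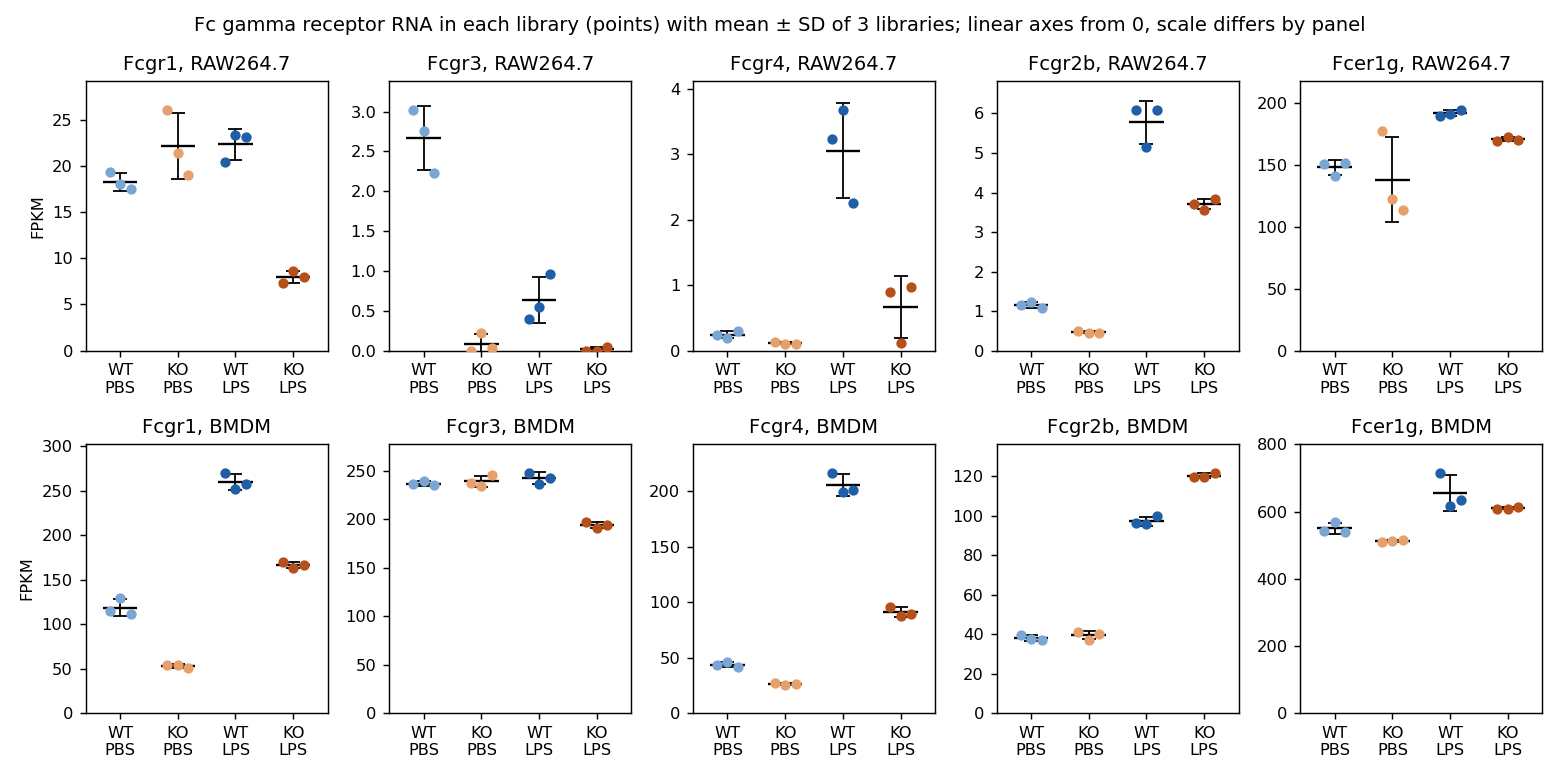
FPKM (fragments scaled to gene length and library total) of each gene on a linear axis from 0, with RAW264.7 in the upper row and BMDMs in the lower row. Points are libraries, the line is the mean and bars are ± SD of 3 libraries, with KO in RAW264.7 as labelled. Fcgr1 and Fcgr4 of BMDMs are lower in knockout with either treatment, and Fcgr3 of RAW264.7 is near 0 in the libraries labelled knockout.

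The receptors were compared between genotypes first in BMDMs with PBS, where Fcgr1 and Fcgr4 were lower in knockout and the values of Fcgr3, Fcgr2b and Fcer1g did not pass the test. Differences were tested with limma on log2(FPKM + 0.1), and a gene was called at a Benjamini-Hochberg adjusted p under 0.05 with a fold change of at least 1.5. By this rule 2 of 5 genes were called, both lower, against 1.82% of 26973 genes tested (0.916% lower). The macrophage marker sum was higher in knockout, at 16680 to 17880 FPKM against 14860 to 15290 with PBS and at 12770 to 13050 against 12170 to 12420 with LPS, opposite in direction to both genes, and its part was not tested.

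Fcgr1, the high-affinity receptor, had 115, 129 and 111 FPKM in the wild-type BMDM libraries with PBS and 54.3, 54.9 and 51.0 in the knockout. The groups did not overlap. Knockout was lower by 2.21-fold, with a log2 fold change of -1.15 (SE 0.06, adjusted p = 6.49e-06, limma). Fcgr4, which binds IgG with intermediate affinity, had 43.4, 46.0 and 42.1 FPKM in wild type and 27.3, 25.2 and 26.4 in knockout. All knockout libraries were again below all wild-type libraries, with a log2 fold change of -0.74 (SE 0.06, adjusted p = 0.000104, limma).

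Fcgr3, the low-affinity activating receptor, was the most abundant of the 4 receptors in resting BMDMs. It had 236, 240 and 235 FPKM in wild type and 237, 235 and 246 in knockout, and the ranges overlapped. The log2 fold change was 0.01 with a 95% interval of -0.08 to 0.11, and its sign turned under count-based scaling. The inhibitory Fcgr2b had 39.7, 37.6 and 37.2 FPKM in wild type and 41.2, 37.4 and 40.2 in knockout, with an interval of -0.06 to 0.17. Fcer1g, the shared signalling chain, had 543, 569 and 539 FPKM against 510, 514 and 515. Its knockout libraries lay below the wild-type ones by 0.10 on the log2 scale, short of the test (adjusted p = 0.517, limma).

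With LPS, Fcgr1 and Fcgr4 were again the genes called lower in knockout BMDMs, 2 of 5 against 4.76% of genes tested (1.53% lower). Fcgr3 and Fcgr2b differed in opposite directions by less than 1.5-fold. In this comparison genes at 1 FPKM or more had a median of 0.14, so that values relative to the median gene are lower by that amount (-0.78 for Fcgr1, 0.17 for Fcgr2b, -0.46 for Fcgr3 and -1.32 for Fcgr4).

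Fcgr1 had 270, 252 and 257 FPKM in wild-type BMDMs with LPS and 170, 163 and 167 in knockout. Knockout libraries were lower without overlap, by 1.56-fold (log2 fold change -0.64, SE 0.06, adjusted p = 0.000171, limma). Fcgr4 had 217, 200 and 201 FPKM in wild type and 96.0, 87.7 and 89.6 in knockout. This was the largest genotype difference of the 5 genes in BMDMs under LPS, 2.26-fold (log2 fold change -1.17, SE 0.06, adjusted p = 7.91e-06).

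Fcgr3 had 248, 236 and 243 FPKM in wild type and 198, 192 and 194 in knockout. The groups did not overlap, and the log2 fold change was -0.32 (SE 0.04, adjusted p = 0.000678, limma), or -0.48 with median-ratio scaling. Fcgr2b had 96.2, 95.8 and 99.9 FPKM in wild type and 120, 120 and 122 in knockout. Knockout was thus higher for the inhibitory receptor, by 0.31 on the log2 scale (SE 0.05, adjusted p = 0.00246), but by 0.15 with median-ratio scaling (adjusted p = 0.0843, limma). Fcer1g had 716, 616 and 634 FPKM against 609, 609 and 614, all lower in knockout, with a log2 fold change of -0.10 (95% interval -0.23 to 0.03).

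**Figure D2:**
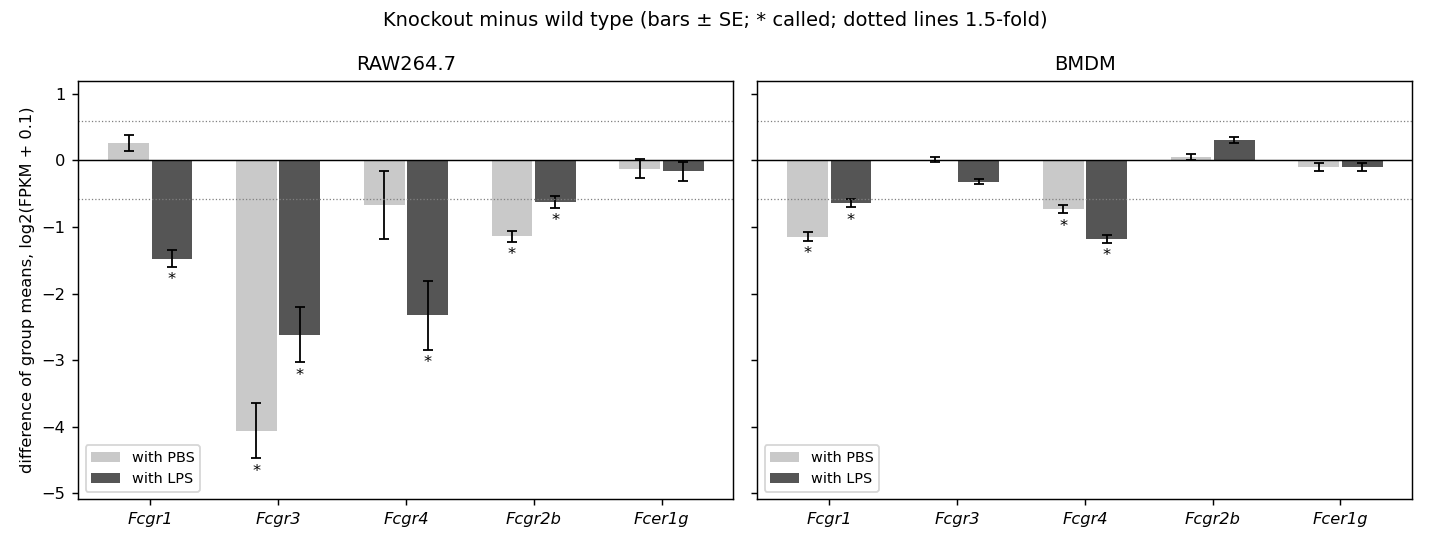
Bars give the knockout minus wild-type difference of group means on the log2(FPKM + 0.1) scale, ± SE, for RAW264.7 (left, as labelled) and BMDMs (right), with PBS in light grey and LPS in dark grey. Stars mark called genes and dotted lines a 1.5-fold change. Fcgr1 and Fcgr4 of BMDMs are called lower with both treatments, and Fcgr1 of RAW264.7 is called with LPS but not with PBS.

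In RAW264.7 the receptors other than Fcgr1 were scarce. Fcgr1 made up 81.8% ± 0.884 (SD, n = 3) of the summed FPKM of the 4 receptors in wild-type cells with PBS, and Fcer1g stood at 148 ± 5.81 FPKM. In the libraries labelled knockout with PBS, Fcgr3 and Fcgr2b were lower and Fcgr1, Fcgr4 and Fcer1g did not pass the test. This was 2 of 5 genes, against 8.55% of 26740 genes tested (3.77% lower). The same count was found without replicate 1 of that group, where 20.6% of all genes were called in either direction. The macrophage marker sum was lower in the libraries labelled knockout, as given above. Fcgr3 and Fcgr2b had the same direction and Fcgr1 did not, and the part of the sum in these values was not tested. In bulk RNA, fewer cells with a transcript and less of it per cell cannot be told apart.

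Fcgr3 had 3.02, 2.75 and 2.23 FPKM in wild-type RAW264.7 with PBS, from 70, 77 and 51 counts. The libraries labelled knockout had 0, 0.22 and 0.04 FPKM, from 0, 6 and 1 counts. The groups lay far apart, and the summed counts, scaled to library totals, were 31.1-fold lower in those labelled knockout (95% exact interval 14.8 to 78.3, counting error only). On the log2(FPKM + 0.1) scale, which understates changes of low genes, the difference was -4.06 (SE 0.42, adjusted p = 0.00025, limma), and -3.70 without replicate 1 of the libraries labelled knockout. Fcgr2b had 1.16, 1.22 and 1.09 FPKM in wild type and 0.49, 0.46 and 0.46 in the libraries labelled knockout. They did not overlap, and the log2 fold change was -1.14 (SE 0.09, adjusted p = 3.52e-05), short of 1.5-fold with a pseudocount of 1 (-0.55). Without replicate 1 it was -1.17 (adjusted p = 1.41e-05).

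Fcgr1 had 19.4, 17.99 and 17.5 FPKM in wild type with PBS and 26.0, 21.4 and 19.0 in the libraries labelled knockout. The ranges overlapped, with a log2 fold change of 0.26 (SE 0.12, adjusted p = 0.186, limma). Replicate 1 held the highest of these values, and without it the difference was 0.14. Fcgr4 was near the detection limit with 4, 4 and 5 counts in wild type and 3, 2 and 2 in those labelled knockout, and no difference was detectable at this depth (2.04-fold, 95% exact interval 0.756 to 6.04; without replicate 1, log2 fold change -0.75, adjusted p = 0.427, limma). Fcer1g had 151, 141 and 152 FPKM in wild type and 177, 123 and 114 in the libraries labelled knockout, of which replicate 1 lay above and the other two below wild type. Its log2 fold change was -0.13, and -0.32 without replicate 1 (adjusted p = 0.00141, under 1.5-fold).

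With LPS, all 4 receptors were called lower in RAW264.7 libraries labelled knockout, and Fcer1g was not. This was 4 of 5 genes against 17.3% of genes tested, 7.6% in the lower direction. The macrophage marker sum was 3857 to 3990 FPKM in wild type and 1207 to 1271 in those labelled knockout here, and its part was not tested.

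Fcgr1 had 20.4, 23.4 and 23.1 FPKM in wild type with LPS and 7.37, 8.59 and 7.92 in the libraries labelled knockout. The groups did not overlap and differed by 2.78-fold (log2 fold change -1.48, SE 0.12, adjusted p = 4.94e-05, limma). Fcgr2b had 6.08, 5.15 and 6.09 FPKM against 3.71, 3.57 and 3.84. Its log2 fold change of -0.62 (SE 0.09, adjusted p = 0.00111) was close to the 1.5-fold limit, and it fell short of it without wild-type replicate 1 or 3 (-0.58 each time), with TPM (-0.40) and with a pseudocount of 1 (-0.52).

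Fcgr3 had 9, 14 and 24 counts in wild type with LPS and 0, 0 and 1 in those labelled knockout. The 47 and 1 counts gave a ratio of 41.5 (95% exact interval 7.1 to 1670), and the log2 fold change was -2.61 (SE 0.42, adjusted p = 0.00237, limma). Fcgr4 had 3.23, 3.68 and 2.26 FPKM in wild type and 0.89, 0.12 and 0.98 in the libraries labelled knockout. Replicate 2 of the latter, with 2 counts, was far below the other two. The log2 fold change was -2.33 (SE 0.51, adjusted p = 0.011), -1.58 without that replicate (adjusted p = 0.00178), and not past the test when only the 6 LPS libraries were fitted (adjusted p = 0.0823). Fcer1g had 189, 191 and 194 FPKM against 169, 173 and 171, lower without overlap by 0.17 on the log2 scale (95% interval -0.49 to 0.15) but higher by 0.07 when libraries were rescaled to TPM, as it was by 0.06 with PBS. Rescaling to TPM moved the median gene of these genotype comparisons to 0.20 with PBS and 0.22 with LPS.

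The response to LPS was read next, since endotoxin is known to change Fc receptor RNA of macrophages. In BMDMs Fcgr1, Fcgr2b and Fcgr4 rose in both genotypes. This was 3 of 5 genes, all higher, in wild type, where 40.4% of genes were called and 7.94% were called higher, and 3 of 5 in knockout (38.9% called, 8.02% higher). The median gene at 1 FPKM or more moved by -0.73 in wild type and by -0.62 in knockout, and with median-ratio scaling this shift was 0.06 in each.

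Fcgr4 rose most, from 43.9 ± 2.01 to 206 ± 9.61 FPKM in wild type and from 26.3 ± 1.08 to 91.1 ± 4.33 in knockout (SD, n = 3 each). The log2 fold changes were 2.23 and 1.79 (SE 0.06 each, adjusted p = 8.4e-10 and 4.23e-09, limma). Fcgr2b rose from 38.15 ± 1.37 to 97.3 ± 2.25 FPKM in wild type and from 39.6 ± 1.94 to 120.5 ± 1.29 in knockout, by 1.35 and 1.60 on the log2 scale. Fcgr1 rose from 118.5 ± 9.58 to 260.0 ± 9.28 FPKM and from 53.4 ± 2.10 to 167 ± 3.53, by 1.14 and 1.64. In none of these genes did LPS and PBS libraries overlap. The share of all genes that separate in this way was not counted. Relative to the median gene the rises were 2.96 and 2.41 for Fcgr4, 2.08 and 2.22 for Fcgr2b and 1.86 and 2.26 for Fcgr1.

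Fcgr3 was the exception among the receptors of BMDMs. Its level was 237 ± 2.42 FPKM with PBS and 243 ± 6.01 with LPS in wild type, and the libraries overlapped (log2 fold change 0.03, SE 0.04). In knockout it was 239 ± 5.74 with PBS and 194 ± 3.18 with LPS, lower without overlap by 0.30 on the log2 scale as deposited (adjusted p = 0.000137, limma) and higher by 0.39 with median-ratio scaling, so that the direction of its response was set by scaling. With that scaling wild type showed a rise of 0.84. Fcer1g was higher with LPS by 0.25 in each genotype (adjusted p = 0.00466 and 0.00452), under 1.5-fold, and by 1.05 and 0.94 with median-ratio scaling.

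**Figure D3:**
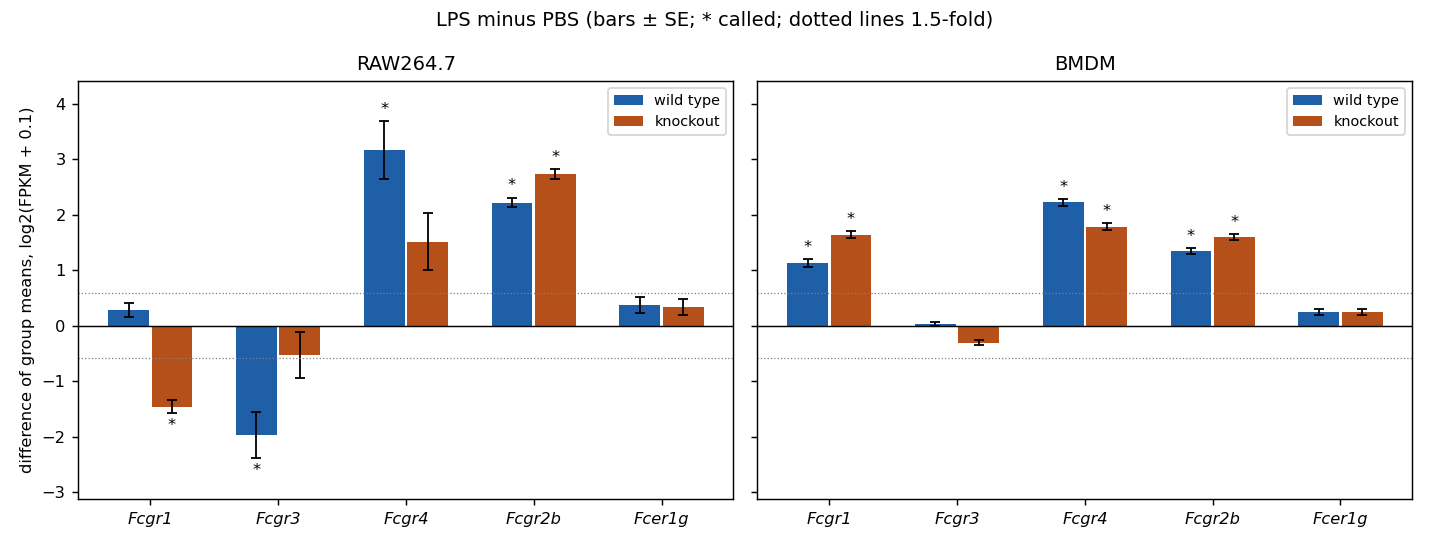
Bars give the LPS minus PBS difference of group means on the log2(FPKM + 0.1) scale, ± SE, in wild type (blue) and knockout (brown), with RAW264.7 on the left (as labelled) and BMDMs on the right. Stars mark called genes and dotted lines a 1.5-fold change. Fcgr1 is lower after LPS in RAW264.7 labelled knockout and higher in BMDMs, and the small Fcgr3 values of BMDMs change direction in knockout when median-ratio scaling is used.

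In RAW264.7 the receptors moved apart with LPS. In wild type Fcgr2b and Fcgr4 rose and Fcgr3 fell, 3 of 5 genes against 18.3% of genes tested. In the libraries labelled knockout Fcgr2b rose and Fcgr1 fell, 2 of 5 against 22.1%. The median gene moved by -0.21 and -0.23.

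Fcgr2b rose from 1.16 ± 0.0651 to 5.77 ± 0.540 FPKM in wild type and from 0.470 ± 0.0173 to 3.71 ± 0.135 in the libraries labelled knockout (SD, n = 3 each). The log2 fold changes were 2.22 and 2.74 (SE 0.09 each, adjusted p = 7.34e-08 and 1.39e-08, limma), and the latter was 2.76 without replicate 1 with PBS. Fcgr4 rose from 13 to 161 counts in wild type, a ratio of 12.6 after scaling to library totals (95% exact interval 7.16 to 24.2), with a log2 fold change of 3.17 (SE 0.51, adjusted p = 0.00122). In those labelled knockout it went from 7 to 30 counts, and its log2 fold change of 1.51 was short of the test (adjusted p = 0.0541, and 0.0906 without replicate 1 with PBS), but past it without replicate 2 of the LPS group (2.26, adjusted p = 6.49e-05) and in edgeR (2.61, adjusted p = 0.00494).

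Fcgr3 of wild-type RAW264.7 fell from 198 to 47 counts, by 1.97 on the log2 scale (SE 0.42, adjusted p = 0.00597, limma), a call that was lost with a pseudocount of 0.01 (adjusted p = 0.23) and with TPM (adjusted p = 0.0625). In those labelled knockout it had 7 counts with PBS and 1 with LPS, too few to show a change. Fcgr1 was 18.3 ± 0.996 FPKM with PBS and 22.3 ± 1.63 with LPS in wild type, all LPS libraries higher (log2 fold change 0.28, adjusted p = 0.141). In the libraries labelled knockout it fell from 22.1 ± 3.59 to 7.96 ± 0.611 without overlap. The log2 fold change was -1.45 (SE 0.12, adjusted p = 1.11e-05, limma), and -1.33 without replicate 1 with PBS. Fcer1g had log2 fold changes of 0.37 and 0.34, neither past the test as deposited, while with median-ratio scaling they were 0.61 and 0.60 and both were called. Without replicate 1 with PBS the second was 0.53 (adjusted p = 6.45e-05, under 1.5-fold).

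Whether the LPS response itself differed between genotypes was tested as the difference of the 2 responses. In RAW264.7 this called Fcgr1, 1 of 5 genes against 1.95% of genes tested. The difference was -1.74 on the log2 scale (SE 0.17, adjusted p = 0.00101, limma), and -1.62 without replicate 1 of the libraries labelled knockout with PBS. For Fcgr2b it was 0.52 (adjusted p = 0.076, or 0.54 with an adjusted p of 0.0288 without that library, under 1.5-fold), past the test with edgeR (0.67) and DESeq2 (0.68), and for Fcgr3 (1.44, but -0.11 with edgeR) and Fcgr4 (-1.65), which rested on few counts, the adjusted p was 0.419 and 0.48, and 0.396 and 0.414 without that library (1.08 and -1.58). In BMDMs no gene passed both limits, against 2.93% of genes tested. Fcgr1 rose more in knockout (0.51, SE 0.09, adjusted p = 0.011), while Fcgr4 (-0.44, SE 0.09, adjusted p = 0.0164) and Fcgr3 (-0.33, SE 0.06, adjusted p = 0.0103) differed in the other direction, all by under 1.5-fold. At an unadjusted p under 0.05 Fcgr2b passed as well (0.26, adjusted p = 0.0722), 4 of 5 genes, and edgeR and DESeq2 called 0 members. The share of all genes above is that of limma at both limits, and none is given for these other counts.

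The make-up of the receptor RNA differed between the cell types, whose tables were made separately and are set side by side without a test. FPKM is scaled to the exonic length listed for each gene, 5790 bases for Fcgr2b, 2589 for Fcgr1, 1736 for Fcgr3 and 1256 for Fcgr4. Where the transcripts made are shorter than that length, FPKM understates the gene. Orders, shares and ratios of the receptors therefore hold for FPKM as deposited, and other lengths were not tried. The order of genes close in FPKM, such as Fcgr4 and Fcgr2b, can turn with the length used. In wild-type cells with PBS the order was Fcgr3, Fcgr1, Fcgr4 and Fcgr2b in BMDMs, where Fcgr4 (42.1 to 46.0 FPKM) and Fcgr2b (37.2 to 39.7) were neighbours that did not overlap, and Fcgr1, Fcgr3, Fcgr2b and Fcgr4 in RAW264.7. In knockout BMDMs Fcgr2b stood above Fcgr4 with PBS and LPS. With LPS Fcgr1 (252 to 270 FPKM) came just above Fcgr3 (236 to 248) in wild-type BMDMs, and Fcgr3 came first in knockout. In RAW264.7 Fcgr1 and then Fcgr2b came first in the other groups, and Fcgr4 (0.10 to 0.14 FPKM) and Fcgr3 (0 to 0.22) overlapped in those labelled knockout with PBS. Fcgr3 held 54.2% ± 1.15 of the summed receptor FPKM in wild-type BMDMs with PBS and 66.7% ± 0.868 in knockout (SD, n = 3 each). With LPS the shares of Fcgr1 (32.3%) and Fcgr3 (30.1%) were close in wild type, and Fcgr4 held 25.5% ± 0.509 there and 15.9% ± 0.469 in knockout.

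The FPKM of the 3 activating receptors over that of Fcgr2b is given as a description, and its size rests on the gene lengths used. In BMDMs with PBS it was 9.94, 11.05 and 10.4 in wild type and 7.75, 8.41 and 8.03 in knockout. With LPS it was 7.64, 7.19 and 7.02 in wild type and 3.88, 3.70 and 3.69 in knockout, the lowest BMDM group. In RAW264.7 the mean ratio was 18.3 ± 1.18 in wild type and 47.4 ± 5.93 in those labelled knockout with PBS (53.4 in replicate 1 and 47.2 and 41.6 in the others), where Fcgr2b was lowest, and 4.55 ± 0.727 and 2.33 ± 0.107 with LPS. The ratio was thus higher in the libraries labelled knockout than in wild type without LPS and lower with it, while in BMDMs knockout was lower with either treatment. Fcer1g FPKM was 0.924 ± 0.0428 times the sum of the activating receptors in wild-type BMDMs with LPS and 1.35 ± 0.0344 times in knockout. In RAW264.7 the common chain was in larger excess, from 5.66 to 20.5 times over all libraries.

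**Figure D4:**
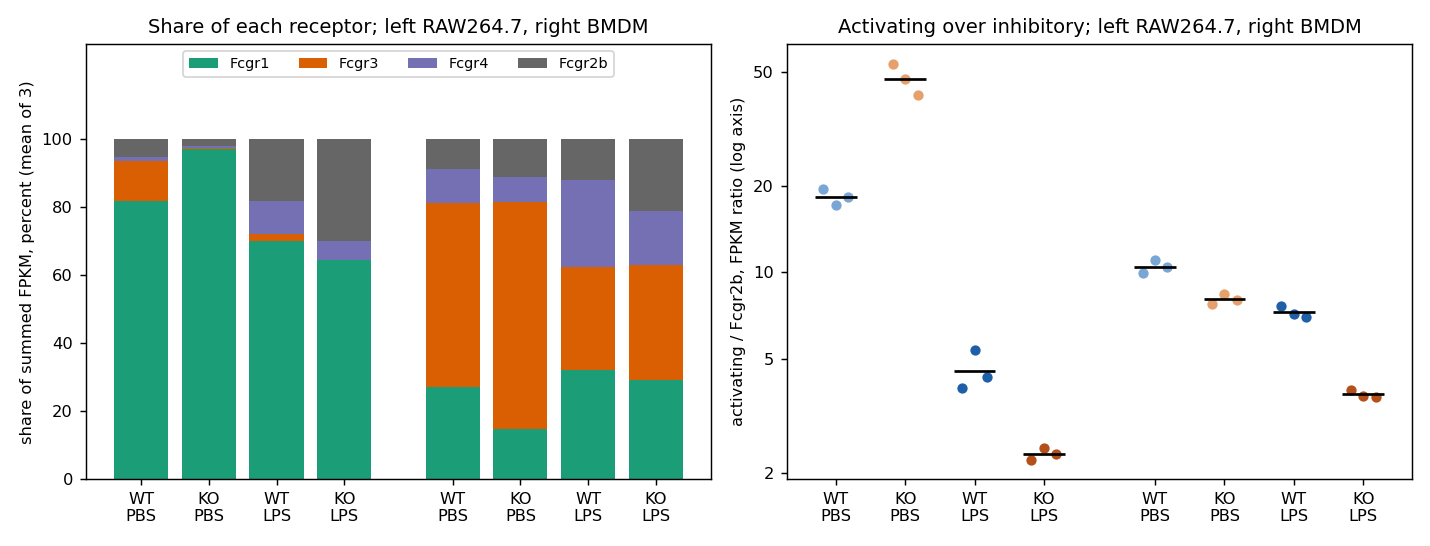
Left, mean share of each receptor in the summed FPKM of Fcgr1, Fcgr3, Fcgr4 and Fcgr2b (percent of 3 libraries) by group. Right, FPKM of the 3 activating receptors over that of Fcgr2b on a log axis, with 1 point per library and the mean as a line. RAW264.7 groups (as labelled) are the 4 on the left of each panel and BMDM groups the 4 on the right, and knockout BMDMs with LPS have the lowest BMDM ratio, 3.69 to 3.88.

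The members did not vary as a block. Over the 12 BMDM libraries Pearson's r with Fcgr4 was 0.96 for Fcgr1, 0.83 for Fcgr2b and 0.94 for Fcer1g, and -0.14 for Fcgr3, and in RAW264.7 Fcgr2b and Fcgr4 were at 0.84 and Fcgr1 and Fcgr4 at 0.05. These libraries share 4 group means, so the values describe the group pattern. Among 9472 genes at a mean of 1 FPKM or more in both tables, the genes most like each member by the mean r over both were Themis2 (0.948), Cyp4v3 and Snx2 for Fcgr1, Clec4e (0.995), Tpm4 and Msr1 for Fcgr2b, Arf6 (0.889), Gla and Tnfrsf12a for Fcgr3, Tmem171 (0.945), Zyx and Furin for Fcgr4, and Dcaf13 (0.946), Ppp1r11 and Pdcd10 for Fcer1g. Protein coding genes that start within 100 kb of a member were read beside them. None of 24 such neighbours tested was called between genotypes in BMDMs by limma, with PBS (3 at an unadjusted p under 0.05, 1 by edgeR, 0 by DESeq2) or LPS (4, 1 and 1). The shares of all genes called there by limma were low, 1.82% and 4.76%. No share is given for the unadjusted p or the other tools. In RAW264.7 2 of 23 were called with PBS (8.7%, against 8.55% of all genes) and 5 with LPS (21.7%, against 17.3%), shares near those of all genes. Without replicate 1 of the libraries labelled knockout with PBS it was 5 of 23, against 20.6%.

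The partners of the receptors were counted by lists. Each count of limma calls is set beside the share of all genes that limma called in the same comparison. Counts at an unadjusted p, by edgeR or by DESeq2 have no such share here. Of 12 receptors and adaptors that signal through ITAM chains as Fc receptors do, none was called between genotypes in BMDMs by limma. With PBS 4 had an unadjusted p under 0.05, 1 was called by edgeR and 0 by DESeq2, and with LPS these were 3, 0 and 0. Of all genes 1.82% and 4.76% were called there, so no call in a list this short says little. In RAW264.7 labelled knockout 4 were called lower with PBS and 6 with LPS, and none higher. These were 4 of 12 (33.3%) and 6 of 12, against 3.77% and 7.6% of all genes called lower. Leaving out replicate 1 with PBS gave 5 of 12 lower, against 20.6% of all genes called in either direction. Tyrobp was among these 5 (-0.59, adjusted p = 1.47e-05, limma). The median log2 fold change of the list was -0.33 and -0.66, against 0.02 and 0 over all genes tested. Clec4d, a lectin receptor that pairs with the Fcer1g chain, was lower in those labelled knockout than in wild type. With PBS it was at 10.9 ± 3.47 against 55.8 ± 3.33 FPKM (a log2 fold change of -2.39, adjusted p = 2.8e-05 in limma, and -2.64 without replicate 1). With LPS it was at 14.3 ± 0.404 against 92.5 ± 2.43 (-2.68, adjusted p = 1.12e-05). Clec4e, its neighbour and partner, rose with LPS in each group. Under LPS it was lower in those labelled knockout, at 69.5 ± 2.14 against 198 ± 6.32 FPKM in wild type (-1.51, adjusted p = 1.45e-05, limma). Tyrobp, the other common ITAM chain of myeloid cells, was lower in those labelled knockout under LPS, at 302 ± 0.617 against 474 ± 8.65 FPKM in wild type (-0.65, adjusted p = 0.0157, limma).

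Of 27 kinases, adaptors and enzymes downstream of the receptors, 5 were higher and 1 lower in RAW264.7 labelled knockout with PBS, and 4 higher and 1 lower with LPS. These 6 genes are 22.2% of the list, against 8.55% of all genes, and the 5 with LPS are 18.5%, close to the 17.3% of all genes. Without replicate 1 with PBS 5 were higher and 2 lower, 7 of 27 against 20.6%. Syk, the kinase that docks on the phosphorylated ITAM, was higher in those labelled knockout than in wild type. With PBS it was at 7.34 ± 1.44 against 3.603 ± 0.0874 FPKM (0.99, adjusted p = 0.00185, limma, and 1.16 without replicate 1). With LPS it was at 8.43 ± 0.367 against 4.08 ± 0.394 (1.03, adjusted p = 0.000943). Cbl, a ubiquitin ligase, was higher in those labelled knockout with PBS and with LPS, by 1.63 and 1.90. Replicate 1 of those labelled knockout with PBS, at 11.95 FPKM, lay apart from the others (35.4 and 36.1), and without it the value with PBS was 2.15 (adjusted p = 6.89e-08, limma). Fgr, a Src family kinase, fell from 4.44 ± 0.676 to 1.41 ± 0.0404 FPKM with PBS (-1.57, adjusted p = 1.32e-05), and the difference without replicate 1 was -1.60. In BMDMs none of the 27 was called with PBS by limma (3 at an unadjusted p under 0.05, 0 by edgeR and DESeq2), against 1.82% of all genes. With LPS 2 were higher, Vav2, an exchange factor for Rac (log2 fold change 0.62, adjusted p = 0.000501), and the phospholipase Plcg1 (0.66, adjusted p = 0.00622), both near 1 FPKM. That is 7.41% of the list, against 4.76% of all genes. With LPS 23 of the 27 had an unadjusted p under 0.05 in either direction, and edgeR and DESeq2 called 2 each. The list median with LPS was 0.22, against 0.04 over all genes tested and 0.14 over genes at 1 FPKM or more. Syk stood at 57.5 and 57.1 FPKM in wild-type and knockout BMDMs with PBS.

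Of 14 inhibitors of the route, 4 were higher and 1 lower in RAW264.7 labelled knockout with PBS, 4 higher and 3 lower with LPS, none in BMDMs with PBS by limma (5 at an unadjusted p under 0.05, 0 by edgeR and DESeq2), and 1 in each direction in BMDMs with LPS. In RAW264.7 these were 5 of 14 (35.7%) and 7 of 14, against 8.55% and 17.3% of all genes, and in BMDMs with LPS 2 of 14 (14.3%), against 4.76%. The share of all genes called in BMDMs with PBS was 1.82%. With LPS in BMDMs 9 of the 14 had an unadjusted p under 0.05, and edgeR and DESeq2 called 2 each. Without replicate 1 with PBS 5 were higher and 1 lower in RAW264.7, 6 of 14 against 20.6%. The 2 of BMDMs were Pag1, which anchors the Src inhibitor Csk (0.78, adjusted p = 9.56e-05, limma), and the ubiquitin ligase Cblb (-0.62, adjusted p = 2.65e-05). With LPS the same 8 of the 14 fell in both BMDM genotypes (57.1%, against 32.5% of all genes called lower in wild type and 30.9% in knockout), led by Inpp5d, which encodes the SHIP1 phosphatase that FcγRIIB recruits. Inpp5d fell from 42.9 ± 0.609 to 2.43 ± 0.122 FPKM in wild type (-4.09, adjusted p = 2.1e-11) and from 42.4 ± 0.485 to 2.33 ± 0.162 in knockout (-4.13, adjusted p = 1.79e-11), while the receptor rose. The median gene at 1 FPKM or more moved by -0.73 and -0.62 in the same comparisons. In wild-type RAW264.7 it fell from 20.6 ± 1.25 to 6.46 ± 0.342 FPKM (-1.66, adjusted p = 1.57e-05).

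Of 27 genes of actin and the phagocytic cup, 4 were higher and 1 lower in RAW264.7 labelled knockout with PBS, 4 in each direction with LPS, none in BMDMs with PBS by limma (5 at an unadjusted p under 0.05, 0 by edgeR and DESeq2) and 1 in BMDMs with LPS. The shares were 18.5% and 29.6% in RAW264.7, against 8.55% and 17.3% of all genes, and without replicate 1 with PBS 5 were higher and 3 lower, 8 of 27 against 20.6%. In BMDMs with PBS no call stood against 1.82% of all genes, and with LPS the share was 3.7%, against 4.76%. That gene was Asap1, which activates the GTPase of Arf proteins, at 21.1 ± 2.66 and 37.0 ± 0.972 FPKM (0.82, adjusted p = 0.000189, limma). With LPS in BMDMs 16 of the 27 had an unadjusted p under 0.05, and edgeR and DESeq2 called 1 each. Of 112 and 118 genes tested whose pathway entry in the tables names Fc gamma receptor phagocytosis, a list added after the tables were seen, 13 were higher and 4 lower in RAW264.7 labelled knockout with PBS, 12 and 8 with LPS, 2 and 0 in BMDMs with PBS and 7 and 1 with LPS. With LPS in RAW264.7 (17.9%, against 17.3%) and with PBS in BMDMs (1.69%, against 1.82%) these shares were close to those of all genes, and they were 15.2% against 8.55% with PBS in RAW264.7 and 6.78% against 4.76% with LPS in BMDMs. Without replicate 1 with PBS 18 were higher and 6 lower in RAW264.7, 24 of 112 against 20.6%.

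Of 18 tested regulators of interferon response and myeloid identity, 1 was higher and 4 were lower in knockout BMDMs with PBS, and 1 was higher and 3 lower with LPS. These are 27.8% and 22.2% of the list, against 1.82% and 4.76% of all genes. At an unadjusted p under 0.05 there were 9 with PBS and 15 with LPS, and edgeR and DESeq2 called 5 each with either treatment. With PBS, Irf7 fell from 23.5 ± 3.44 to 2.05 ± 0.08 FPKM (-3.45, adjusted p = 6.85e-08, limma). Stat2 (-1.30) and Irf9 (-0.91) were lower too. Socs3, a feedback inhibitor of cytokine signalling, was higher (0.76), at 1.21 against 0.673 FPKM, both near 1 FPKM. With LPS, Irf8, a regulator of the macrophage lineage, was lower in knockout than in wild type, at 40.1 ± 2.50 against 171 ± 6.52 FPKM (-2.09, adjusted p = 2.26e-07, limma). Ifnb1 (-1.25) and Socs1 (-1.04) were lower in knockout too. Cebpa was higher (0.76), at 1.14 against 0.633 FPKM, both near 1 FPKM. Spi1, which encodes PU.1, stood at 82.3 and 79.7 FPKM with PBS and was not called in any genotype comparison. In RAW264.7 labelled knockout 5 of 18 were lower with PBS and 5 with LPS, none higher, among them Irf7 (-3.23 and -0.81) and Cebpb (-1.05 and -1.61). Each 5 are 27.8% of the list, against 3.77% and 7.6% of all genes called lower. Without replicate 1 with PBS 5 were lower as well, against 20.6% of all genes called in either direction, with Irf7 at -3.20 and Cebpb at -1.25.

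**Figure D5:**
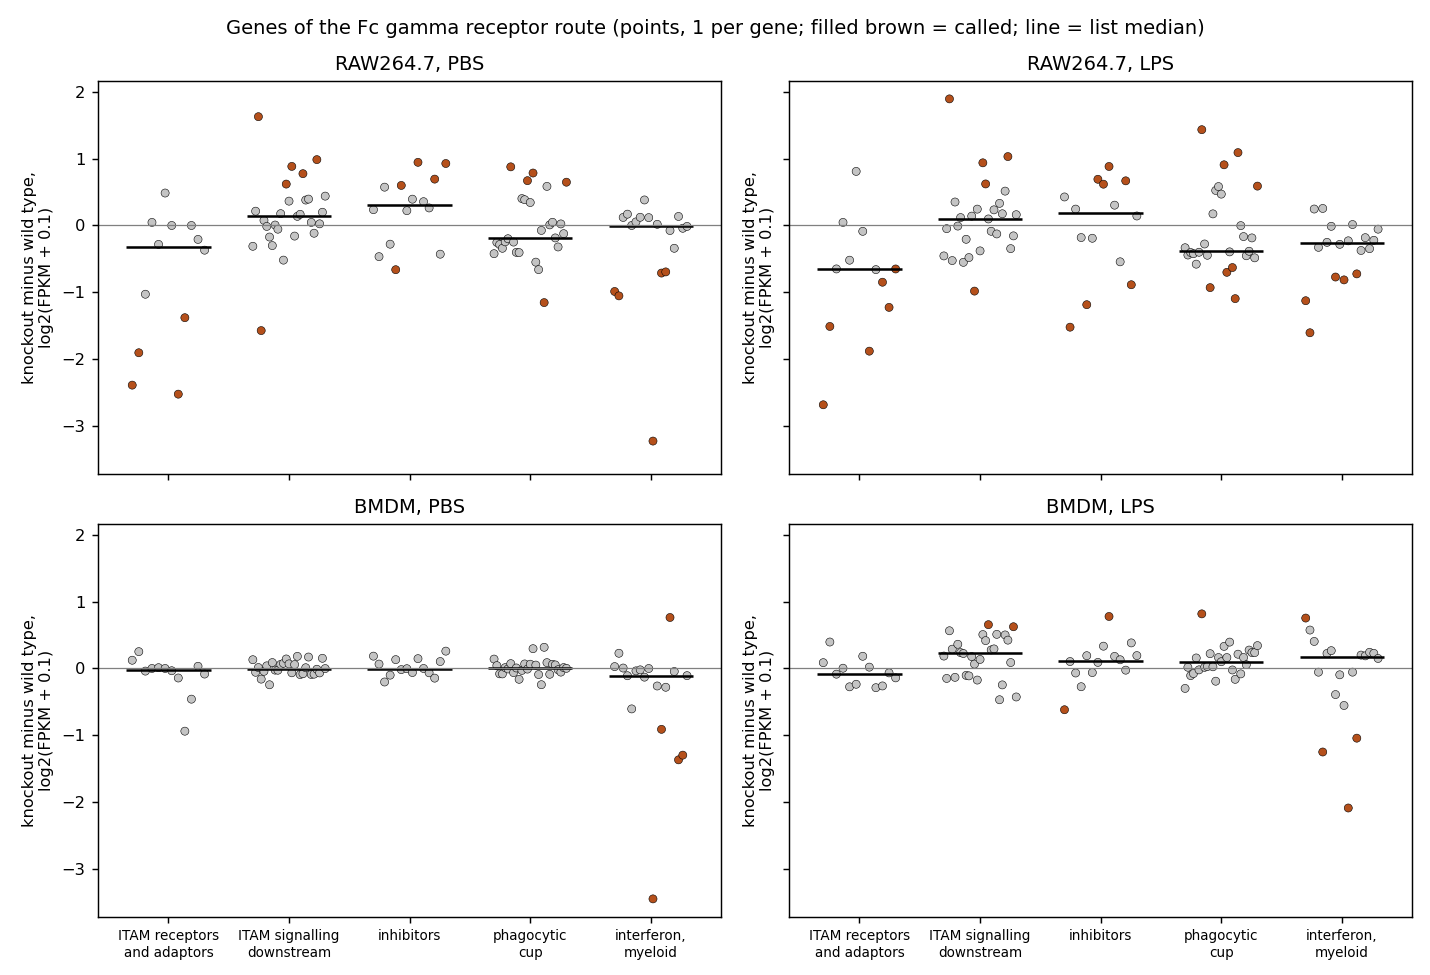
Each point is 1 gene of a list, placed by its knockout minus wild-type difference on the log2(FPKM + 0.1) scale, in RAW264.7 (upper panels, as labelled) and BMDMs (lower panels), with PBS on the left and LPS on the right. Brown points were called and lines are list medians. In BMDMs with PBS the called points lie in the interferon and myeloid list alone, with Irf7 lowest at -3.45.

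Other Fc receptors were mostly low. Of 14 on the list 10 were tested in RAW264.7 and 11 in BMDMs, and none was called between genotypes in BMDMs by limma with PBS (3 at an unadjusted p under 0.05, 0 by edgeR and DESeq2) or LPS (2, 1 and 1). Of all genes 1.82% and 4.76% were called in these comparisons. In RAW264.7 labelled knockout 1 of 10 was higher and 2 were lower with PBS, against 8.55% of all genes called in either direction. Without replicate 1 the counts were the same, against 20.6% of all genes. With LPS 2 of 10 were lower and none higher, against 7.6% of all genes called lower and 17.3% called in either direction. Fcgrt, the neonatal receptor that recycles IgG, stood at 39.5 and 38.2 FPKM in wild-type and knockout BMDMs with PBS and fell to 14.9 and 11.9 with LPS. In RAW264.7 it was low, and lower in the libraries labelled knockout, at 0.873 ± 0.0945 against 2.23 ± 0.216 FPKM with PBS (-1.26, adjusted p = 0.0202, limma) and at 0.287 ± 0.0651 against 0.933 ± 0.509 with LPS (-1.33, adjusted p = 0.00892). The gene called higher there with PBS was Fcrla, at 0.0967 against 0.0133 FPKM (0.81, adjusted p = 0.0206), both near 0. Trim21, a receptor for antibody inside the cell, rose with LPS by 2.70 and 3.09 in BMDMs and by 3.52 and 3.27 in RAW264.7 (the latter 3.14 without replicate 1 with PBS). Fcrl1, an Fc receptor-like gene, was lower in RAW264.7 labelled knockout, from 14.3 ± 0.589 to 4.78 ± 0.155 FPKM with PBS (-1.56, adjusted p = 3.7e-06, limma, and -1.58 without replicate 1) and from 10.3 ± 0.387 to 3.79 ± 0.359 with LPS (-1.42, adjusted p = 6.6e-06).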

How the data were processed

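Poly(A) RNA of 24 libraries was sequenced as paired reads. For each cell type the authors deposited a table that holds both the counts of every gene and its FPKM (fragments scaled to gene length and library total). The submitters' processing notes name mm10, but the coordinates in the tables do not match GRCm38, and their build was not settled here. Which aligner and counter were used was not given in the sources used here. When FPKM was recomputed from the count, length and total, it lay within 1% of the deposited value for 99.88% (RAW264.7) and 99.51% (BMDM) of the values over 50 counts. Libraries were grouped by title.

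limma 3.58.1 (R 4.3.3) fitted 4 group means per table on log2(FPKM + 0.1), over genes above 0 in at least 1 library, two-sided, with Benjamini-Hochberg adjustment over all genes. This follows the study's test and thresholds. edgeR 4.0.16 (quasi-likelihood) and DESeq2 1.42.0 on the counts, pseudocounts of 0.01 and 1, a filter, TPM, median-ratio scaling, a replicate block, 2-group fits and leaving out each library were the alternatives. Scripts were tested on simulated data. Replicate numbers did not pair the libraries (correlations of deviations -0.058 to 0.084).

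The members and lists were chosen with earlier results of these data known. The genes named are the members, up to 4 called genes per list and comparison by size at 1 FPKM or more, the 3 most alike per member, and neighbours within 100 kb. Inpp5d, Syk, Spi1, Tyrobp, Fcgrt, Socs3, Plcg1 and Vav2 are also named where this rule does not give them, after their values were seen, as is Fcrla. The counts of each list at an unadjusted p, with other tools and, in RAW264.7, without replicate 1 of the libraries labelled knockout with PBS were added then too. A gene of the interferon and myeloid list is counted but not reported here. At these depths a gene at 0.1 FPKM has few counts, and intervals cover counting error only.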

Additional observations from a re-analysis of the deposited data

Results flagged for a closer look

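The LPS response of Fcgr1 differed between genotypes in RAW264.7, with a difference of -1.74 on the log2 scale between the libraries labelled knockout and wild type (adjusted p = 0.00101, limma). In BMDMs the same test gave differences of 0.51 for Fcgr1, -0.33 for Fcgr3 and -0.44 for Fcgr4 (adjusted p = 0.011, 0.0103 and 0.0164), each under 1.5-fold. Fcgr1 moved in opposite directions with LPS in the knockout of the 2 cell types, by -1.45 in RAW264.7 as labelled and by 1.64 in BMDMs, with no overlap of the 3 LPS and 3 PBS libraries in either. Fcgr2b of knockout against wild type with LPS was at -0.62 in RAW264.7 as labelled and at 0.31 in BMDMs, again without overlap. These opposite directions were not tested, because the tables were made separately.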

How the results depend on the processing

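The number of members called stayed within 1.5 times of the reported count in 216 values under other settings and did not in 12. These were 1 with a pseudocount of 1 for RAW264.7 genotypes with PBS, 4 with median-ratio scaling for LPS in RAW264.7 labelled knockout, 2 with a pseudocount of 1, edgeR or DESeq2 for the RAW264.7 difference of LPS effects, 5 with median-ratio scaling, edgeR with or without a filter or DESeq2 for LPS in wild-type BMDMs, and, by the adjusted p alone, 4 for BMDM genotypes with LPS, 5 for LPS in knockout BMDMs and 3 for the BMDM difference. Of log2 fold changes of single members 1083 kept direction and call, 36 gained and 10 lost a call, and 31 changed sign. Fcer1g changed sign with TPM in RAW264.7 genotypes (0.061 with PBS, 0.068 with LPS) and in the RAW264.7 difference (0.006, and from -0.161 to 0.157 without single libraries, the latter without replicate 1 of the libraries labelled knockout with PBS). In the BMDM difference Fcer1g was at -0.109, -0.102, -0.1 and -0.111 with median-ratio scaling, edgeR, edgeR without a filter and DESeq2, and from -0.04 to 0.068 without single libraries. Fcgr3 changed sign in the RAW264.7 difference with edgeR (-0.113, and -0.119 without a filter) and DESeq2 (-0.274), in BMDM genotypes with PBS with the same scalings (-0.032, -0.029, -0.024 and -0.032) and without single libraries (-0.006 without knockout replicate 3, to 0.027), in wild-type BMDMs with LPS under TPM (-0.009), and in knockout BMDMs with LPS under those scalings (0.394, 0.372, 0.314 and 0.395). When Fcgr2b and Fcgr3 were summed as 1 gene, the LPS effect was 0.732 and 2.553 in RAW264.7 and 0.176 in knockout BMDMs, the BMDM genotype effect with LPS was -0.11, and the BMDM difference was -0.129, which follows from adding the 2 genes. For the other sign changes the cause was not tested. With the replicate number as a block 2 and 4 members were called between RAW264.7 genotypes with PBS and LPS and 2 and 2 between BMDM genotypes, the same counts as without it, and the pairing changed no call of a member. Fcgr3 and Fcgr4 in RAW264.7 are limited by depth.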
